A study of Mus musculus with 30 samples.

Results

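The genes of the T cell receptor complex and its coreceptors were followed in whole mouse tumors. The 10 genes were taken by name: the CD3 chain genes Cd3d, Cd3e and Cd3g, the zeta chain gene Cd247, the coreceptor genes Cd4, Cd8a and Cd8b1, the kinase genes Lck and Zap70 and the costimulatory receptor gene Cd28. All 10 had a row among the 39676 gene identifiers counted, and all 10 passed the filter on low counts. RNA was sequenced from whole tumors that grew for 8 days under the skin of C57BL/6 mice, with 10 tumors of each of 3 types. The GFP tumors, labelled B16-GFP, grew from B16.GFP.gB.luc cells, B16 melanoma cells transduced with a retrovirus for GFP alone. The IFNα4 tumors (B16-IFNA4) grew from cells of the line B16.IFNα4.gB.luc, which also secrete IFNα4, and the IFNα9 tumors (B16-IFNA9) from B16.IFNα9.gB.luc cells, which secrete IFNα9. Both are type I interferons (IFN-I). All 3 lines also carry the herpes simplex virus antigen gB and luciferase, so the control cells differ from the others in the interferon and not in these foreign proteins. The mice were females, typically 8 to 12 weeks old, and each line was a stable population sorted after transduction. The labels call the 10 tumors of a type biological replicates and do not name the mouse, so the tests below measure the spread between these tumors.

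The T cell receptor recognises a peptide held by an MHC molecule but has no signalling tail of its own. The CD3 chains and the zeta chain carry the signal into the cell through motifs that Lck phosphorylates and to which Zap70 then binds. CD4 and CD8 bind MHC class II and class I, bring Lck to the receptor and divide conventional T cells into helper and cytotoxic cells, and CD28 delivers the second signal that a naive T cell needs. Several of these genes are not exclusive to T cells: natural killer (NK) cells use the zeta chain, Lck and Zap70, some dendritic cells carry a CD8α homodimer, and Cd4 is also transcribed in some mouse dendritic cells and macrophages.

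Depth was similar across the tumors, with 14598517 to 19788383 counts in each. Levels are given as CPM, the counts of a gene scaled to the size of its library, with TMM factors that correct for differences in library composition. For these genes, 3 libraries stood apart. GFP tumor 7 was the lowest of its type for 8 of the 10 genes, and its summed level of 3 melanocyte genes, 22850 CPM, was the highest of all 30 tumors. GFP tumor 8 had the highest Cd4 of all 30 tumors, at 46.5 CPM. IFNα9 tumor 10 was the lowest of its type for 7 of the 10 genes and the highest of its type for the melanocyte genes, at 8928 CPM. Where leaving out any of these libraries alone changed the call of a gene or ratio, this is stated below.

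All 10 genes were higher in IFNα4 tumors than in GFP tumors. The log2 fold changes ran from 1.48 for Cd4 to 3.54 for Cd28, with a median of 2.85, and all passed the test, where 31.3% of all genes tested were called higher. For 9 of the 10 the types did not overlap, every IFNα4 tumor lying above every GFP tumor, a pattern found in 8.5% of the genes tested. In IFNα9 tumors all 10 genes were higher than in GFP tumors in sign and 9 passed the test, against a background of 26.9%, with a median log2 fold change of 2.29 over the 10 genes. The types did not overlap for 3 of them, Cd247, Lck and Cd28, against 4.44% of the genes tested. Cd4 was the gene that did not pass. Both comparisons share the same 10 control tumors. In bulk tumor RNA, more cells of a type and more RNA per cell cannot be told apart. Both kinds of IFN-I–secreting tumors held more leukocyte RNA as a whole, with summed levels of 6 leukocyte genes of 177 to 625 CPM in GFP tumors, 967 to 1996 CPM in IFNα4 tumors and 700 to 1392 CPM in IFNα9 tumors. The melanocyte genes went the other way, with median sums of 8981, 3055 and 4536 CPM. The part of these shifts in the results below was not tested.

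**Figure D1:**
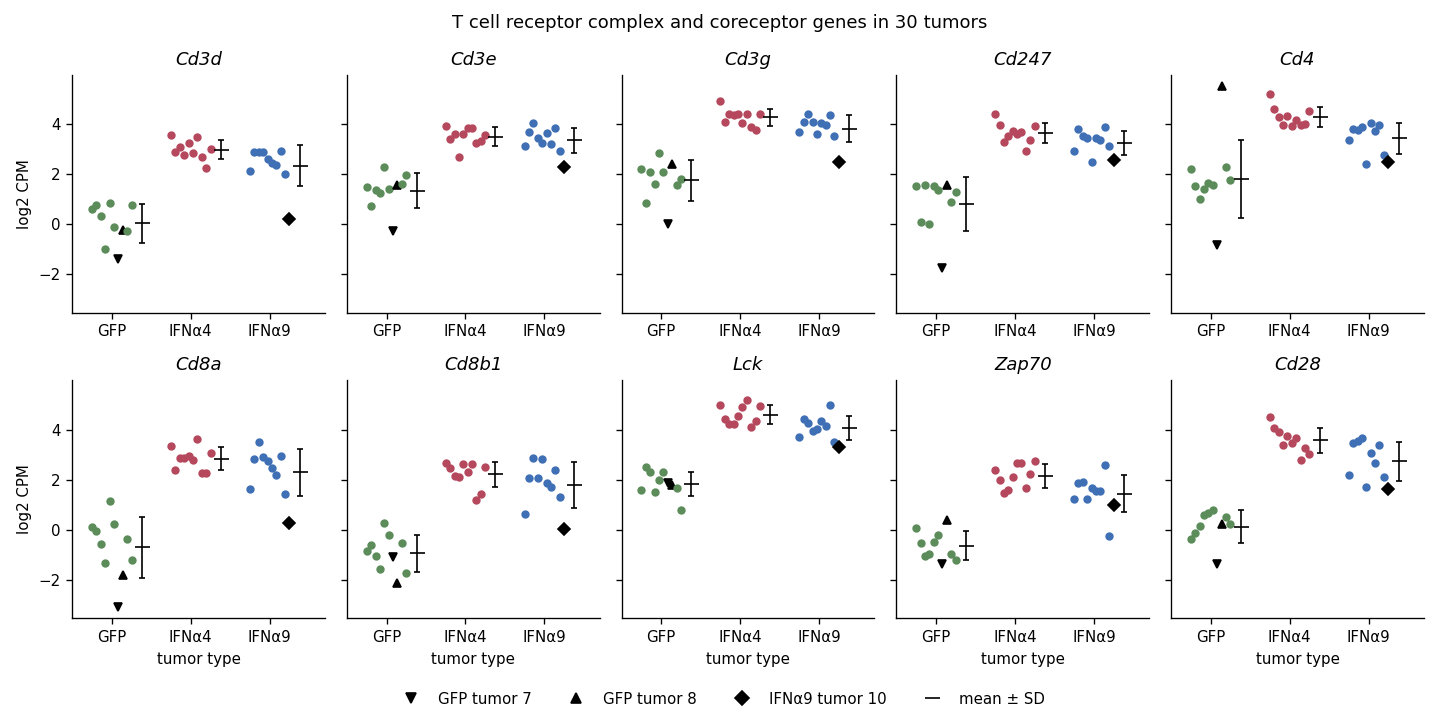
Level of each of the 10 genes in every tumor, as log2 CPM with 2 counts added, by tumor type. Points are single tumors, bars the mean and SD of 10 tumors, and black symbols the 3 tumors that stood apart. The IFNα4 tumors lie above the GFP tumors in every panel except for Cd4, where GFP tumor 8 lies above all others.

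The CD3 chain genes lie together on chromosome 9 (coordinates of GRCm38). Cd3g (ENSMUSG00000002033.14, 44969572 to 44980431, minus strand) and Cd3d (ENSMUSG00000032094.8, 44981786 to 44987339, plus strand) are transcribed away from each other with 1354 bases between them, and Cd3e (ENSMUSG00000032093.7, 44998740 to 45009627, minus strand) lies 11400 bases beyond Cd3d. The 250 bases before the RefSeq start site of each (GRCm38.p6) are shown because the 3 genes share this neighbourhood and rose together. Capitals mark matches on either strand to any of 4 motifs that were searched: AGGAAG (the core of ETS factor sites), TGTGGT (the core of RUNX sites), TTCNNNGAA (the STAT site GAS) and GAAA repeated after any 2 bases (the interferon-stimulated response element, ISRE).
Cd3g, chr9:44980432-44980681, minus strand: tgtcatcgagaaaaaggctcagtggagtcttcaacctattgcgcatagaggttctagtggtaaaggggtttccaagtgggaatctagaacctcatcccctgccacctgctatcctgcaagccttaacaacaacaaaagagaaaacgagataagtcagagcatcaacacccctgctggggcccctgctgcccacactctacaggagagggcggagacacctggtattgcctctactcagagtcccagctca
Cd3d, chr9:44981536-44981785, plus strand: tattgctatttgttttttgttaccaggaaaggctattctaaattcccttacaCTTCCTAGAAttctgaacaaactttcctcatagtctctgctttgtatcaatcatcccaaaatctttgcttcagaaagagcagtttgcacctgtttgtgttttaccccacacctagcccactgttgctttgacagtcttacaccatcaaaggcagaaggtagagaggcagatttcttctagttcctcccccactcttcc
Cd3e, chr9:45009612-45009861, minus strand: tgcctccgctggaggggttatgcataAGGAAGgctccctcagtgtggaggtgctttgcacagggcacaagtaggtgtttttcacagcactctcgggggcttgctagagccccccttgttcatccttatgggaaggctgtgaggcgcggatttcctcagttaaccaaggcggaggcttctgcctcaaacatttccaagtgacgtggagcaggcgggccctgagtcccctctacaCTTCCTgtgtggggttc
In the Cd3d window, an ETS core that starts 198 bases before the start site overlaps a match to GAS that starts 197 bases before it. The Cd3e window holds ETS cores that start 224 and 17 bases before the start site, and the Cd3g window holds none of the 4 motifs. RefSeq promoter windows were found for 7 of the 10 genes, 10 windows in all, since Lck and Zap70 have several. The ISRE letters occurred in 0 of these 10 windows, where 2.98% of 32851 promoter windows of this length hold them, and those of GAS in 1 of the 10, against 7.02%. ETS cores occurred in 7 of the 10, against 29.5%, and these 7 windows belong to 5 genes. RUNX cores occurred in 2, for Lck and Zap70, against 14.0%. Windows of the same gene are not independent. A match is a run of letters and not a measured binding site.

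Cd3e, the chain most often used to identify T cells, had 0.715 CPM in the lowest, 2.62 in the median and 4.84 in the highest GFP tumor. It had 6.29, 11.9 and 15.3 CPM in IFNα4 tumors and 4.80, 10.1 and 16.2 CPM in IFNα9 tumors. The lowest IFNα4 tumor thus lay above every control, while the lowest IFNα9 tumor, tumor 10, lay just within the control range. On the log2 scale it rose by 2.11 with IFNα4 and 1.98 with IFNα9 (standard error 0.23 each), with adjusted p of 3.60e-09 and 2.66e-08 from edgeR's quasi-likelihood test (Benjamini-Hochberg adjustment). Cd3g, whose product pairs with that of Cd3e, had 0.893, 3.80 and 7.10 CPM as the lowest, median and highest values in GFP tumors. The same values were 13.5, 20.9 and 29.9 CPM with IFNα4 and 5.54, 15.96 and 20.9 CPM with IFNα9. Again only IFNα9 tumor 10 fell within the control range. Cd3g rose by 2.40 on the log2 scale with IFNα4 and by 1.99 with IFNα9 (standard error 0.24 each).

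Cd3d, which forms the other CD3 pair with Cd3e, ran from 0.268 to 1.71 CPM in GFP tumors, with a median of 0.971. In IFNα4 tumors it ran from 4.60 to 11.7 CPM with a median of 7.62, and in IFNα9 tumors from 1.05 to 7.61 CPM with a median of 5.68. IFNα9 tumor 10, with 17 counts where the next tumor had 64, was the single IFNα9 tumor inside the control range. The log2 fold changes were 2.94 with IFNα4 (standard error 0.29) and 2.39 with IFNα9 (standard error 0.29). Cd3d therefore had a larger fold change than Cd3e in both comparisons, which is taken up below as a ratio.

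Cd247 (ENSMUSG00000005763.15, chromosome 1 from 165788681 to 165877277, plus strand) encodes the zeta chain, the part of the complex with the longest signalling tail. Its level was 0.179, 2.42 and 2.88 CPM as the lowest, median and highest value in GFP tumors, 7.55, 12.4 and 21.02 CPM in IFNα4 tumors and 5.43, 10.5 and 14.8 CPM in IFNα9 tumors. Neither type overlapped with the controls. It rose by 2.67 with IFNα4 and 2.30 with IFNα9 on the log2 scale (standard error 0.27 each; adjusted p = 1.39e-09 and 5.14e-08, edgeR with Benjamini-Hochberg adjustment). Of the exonic bases of Cd247, 56.4% lie opposite exons of Pou2f1 on the other strand, and the strand setting of the counting was not given in the sources used here. Pou2f1 itself had 24.1 ± 4.57 CPM (SD, n = 10) in GFP tumors, 26.7 ± 3.34 in IFNα4 tumors and 26.6 ± 3.84 in IFNα9 tumors. In GFP tumor 7, Cd247 had 2 counts beside 198 of Pou2f1.

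The genes of the cytotoxic coreceptor and Cd28 had the 3 largest rises in each comparison with the controls. Cd8a (ENSMUSG00000053977.13, 71373427 to 71379173) and Cd8b1 (ENSMUSG00000053044.8, 71322788 to 71337494) lie on the plus strand of chromosome 6 with 35932 bases between them and encode the α and β chains of CD8. The window before the Cd8a start is shown because the gene had one of the largest rises. It holds none of the 4 motifs.
Cd8a, chr6:71373177-71373426, plus strand: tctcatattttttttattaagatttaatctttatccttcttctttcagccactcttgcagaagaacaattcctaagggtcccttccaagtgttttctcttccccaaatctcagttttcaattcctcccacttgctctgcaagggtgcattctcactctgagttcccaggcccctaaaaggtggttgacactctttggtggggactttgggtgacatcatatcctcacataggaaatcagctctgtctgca
Cd8a had 0 counts in GFP tumor 7, which allows up to 3 counts, and a median of 0.609 and a highest value of 2.09 CPM in the controls. In IFNα4 tumors the lowest, median and highest values were 4.72, 7.19 and 12.3 CPM, and in IFNα9 tumors 1.11, 6.00 and 11.3 CPM. One IFNα9 tumor, tumor 10, fell within the control range, and the other 9 did not. On the log2 scale Cd8a rose by 3.36 with IFNα4 and by 2.99 with IFNα9, each with a standard error of 0.40 (adjusted p = 2.24e-08 and 3.75e-07, edgeR with Benjamini-Hochberg adjustment).

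Cd8b1, the chain that marks conventional cytotoxic T cells more closely than Cd8a, ran from 0.113 to 1.10 CPM in GFP tumors, with 2 to 20 counts per tumor. It ran from 2.19 to 6.20 CPM in IFNα4 tumors and from 0.923 to 7.23 CPM in IFNα9 tumors, with medians of 5.20 and 3.86. The range within IFNα9 tumors was thus wider than within IFNα4 tumors and spanned it. Its fold changes were 3.33 with IFNα4 and 3.04 with IFNα9 on the log2 scale (standard error 0.35 each), that is 10.0-fold and 8.24-fold. The ratio of Cd8a to Cd8b1 counts had medians of 1.43, 1.62 and 1.50 in the 3 types. Its differences between types did not pass (100000 resamples in two-sided permutation tests, with adjusted p = 0.450 for IFNα4 against GFP, 0.659 for IFNα9 against GFP and 0.568 between the IFN-I–secreting tumors). Of the 50-base stretches of Cd8b1, 6.28% also occur in other transcripts.

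Cd4 (ENSMUSG00000023274.14, chromosome 6 from 124864692 to 124888221, minus strand), the coreceptor gene of helper T cells, had fold changes that depended strongly on a single control. GFP tumor 8 had 822 counts of Cd4, or 46.5 CPM, and the other 9 GFP tumors had 5 to 83 counts, at most 4.83 CPM. In IFNα4 tumors Cd4 had 15.2, 18.7 and 36.8 CPM as the lowest, median and highest value, and in IFNα9 tumors 5.27, 13.3 and 16.6 CPM. Every tumor of either IFN-I–secreting type thus lay above 9 of the 10 controls and below the other. Over all 30 tumors it was higher by 1.48 on the log2 scale with IFNα4 (adjusted p = 0.00834, standard error 0.48, edgeR with Benjamini-Hochberg adjustment) and 2.80 without GFP tumor 8. With IFNα9 it was 0.66 (standard error 0.48) and did not pass (adjusted p = 0.244 with the same edgeR test), but it was 1.98 without that tumor (adjusted p = 9.35e-07). With DESeq2 on all 30 tumors it was 1.61 (adjusted p = 6.16e-07).

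In GFP tumor 8, Zap70 was, like Cd4, the highest and Cd8b1 the lowest of the controls, and the remaining receptor genes lay between the other controls. Zap70 was at 1.19 CPM (21 counts) there, and the tumor had the second highest Cd3g and Cd247, at 5.26 and 2.83 CPM. Cd8a had 3 counts and Cd8b1 2, at the low end of the controls, and Cd3e had 51, near their median. Its log2 ratio of Cd4 to Cd3e was 4.00, against 0.83 in the next control. Cxcl13, a chemokine that attracts B cells and was picked after its values were seen, had 4587 counts there and 35 to 391 in the other controls. The summed level of 6 B cell genes was the highest of its type in this tumor, at 95.6 CPM, and so was that of 6 leukocyte genes, at 625 CPM. Among the tested B cell genes Ighm led with a mean of 79.9 CPM over all 30 tumors, and Pax5 came next with 1.71. The sums of 9 T cell lineage genes and 11 NK cell genes were the second highest, and that of 7 macrophage genes the third highest. The T cell lineage sum was 298 CPM here. Over all 30 tumors its genes Trac, Trbc1 and Trbc2 had means of 7.38, 14.3 and 18.3 CPM. The part of other cell types in the Cd4 count of this tumor was not tested.

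**Figure D2:**
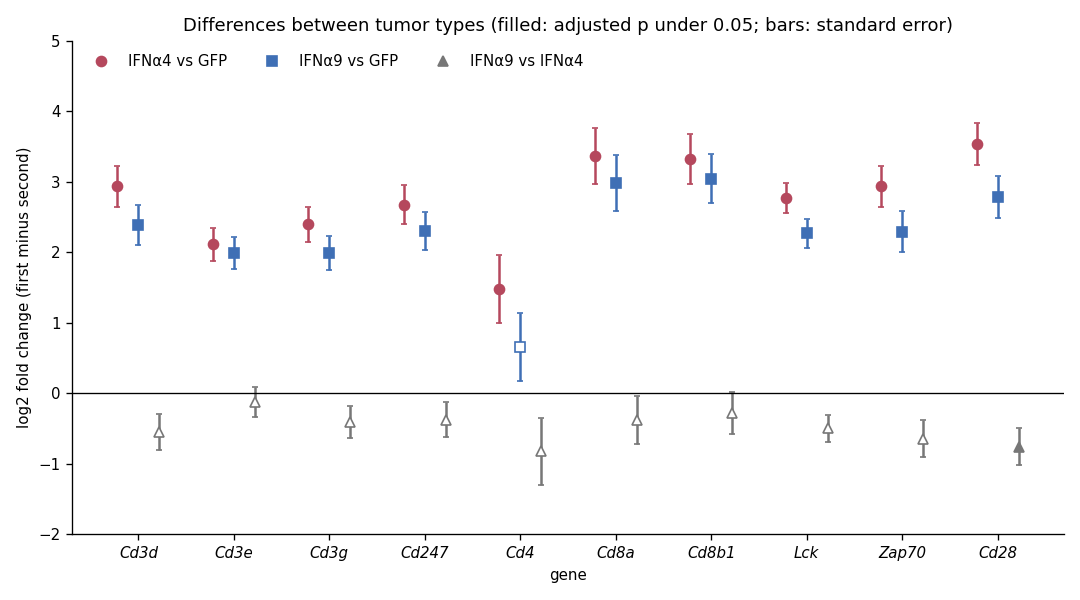
Log2 fold change of each gene in 3 comparisons of tumor types, with bars for the standard error. Filled symbols passed an adjusted p of 0.05 and open ones did not. All values against GFP are above 0, with Cd4 the smallest, and all values between the IFN-I–secreting tumors are below 0, with Cd28 the one filled symbol.

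The ratio of Cd8a to Cd4 counts compares the cytotoxic with the helper coreceptor within a tumor, so library size drops out of it. It was taken with 0.5 counts added to each gene. In GFP tumors it ran from 0.00426 in tumor 8 to 0.694 in tumor 5, with a median of 0.177. In IFNα4 tumors it ran from 0.214 to 0.687 with a median of 0.369, and in IFNα9 tumors from 0.204 to 1.24 with a median of 0.440. The ratio passed 1 in a single tumor, IFNα9 tumor 5, with 122 counts of Cd8a and 98 of Cd4. On the log2 scale the means were −2.79 ± 2.02 (SD, n = 10) in GFP tumors, −1.46 ± 0.47 in IFNα4 tumors and −1.14 ± 0.75 in IFNα9 tumors.

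IFNα9 tumors exceeded GFP tumors in this ratio by 1.65 on the log2 scale (two-sided permutation test with 100000 resamples, p = 0.00780, adjusted p = 0.0234 over 39 tests of ratios), and all 10 lay above the control median. IFNα4 tumors exceeded GFP tumors by 1.33, and all 10 lay above the control median too, but the difference did not pass after adjustment (permutation test, p = 0.0228, adjusted p = 0.0556). Between the IFN-I–secreting tumors the difference was 0.32 in favour of IFNα9 (permutation test, p = 0.267, adjusted p = 0.347), within the spread between tumors. The controls set the width of these differences: without GFP tumor 8 they fell to 0.76 with IFNα4 (permutation test, adjusted p = 0.0870) and 1.08 with IFNα9 (adjusted p = 0.0370), and without GFP tumors 7 and 8 to 0.61 and 0.93 (permutation tests, adjusted p = 0.139 and 0.0649). Leaving out IFNα9 tumor 5 moved the difference with IFNα9 to 1.49 (permutation test, adjusted p = 0.0502), and leaving out GFP tumor 2, 3, 5 or 6 in turn moved that with IFNα4 to between 1.45 and 1.58, where it passed (adjusted p = 0.0424 at most). With Cd8b1 in place of Cd8a they were 0.90 and 1.33 and neither passed (permutation test, adjusted p = 0.313 and 0.124). Without GFP tumor 8 these fell to 0.30 and 0.73 and did not pass, and without GFP tumor 7 they were 1.20 and 1.63, of which the second passed (permutation tests, adjusted p = 0.0662 and 0.0284). Divided by the length of the annotated exons, the median ratio of Cd8a to Cd4 was 0.195 in GFP tumors, 0.408 in IFNα4 tumors and 0.490 in IFNα9 tumors, so that Cd4 was the higher of the 2 per length in all but 1 tumor.

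**Figure D3:**
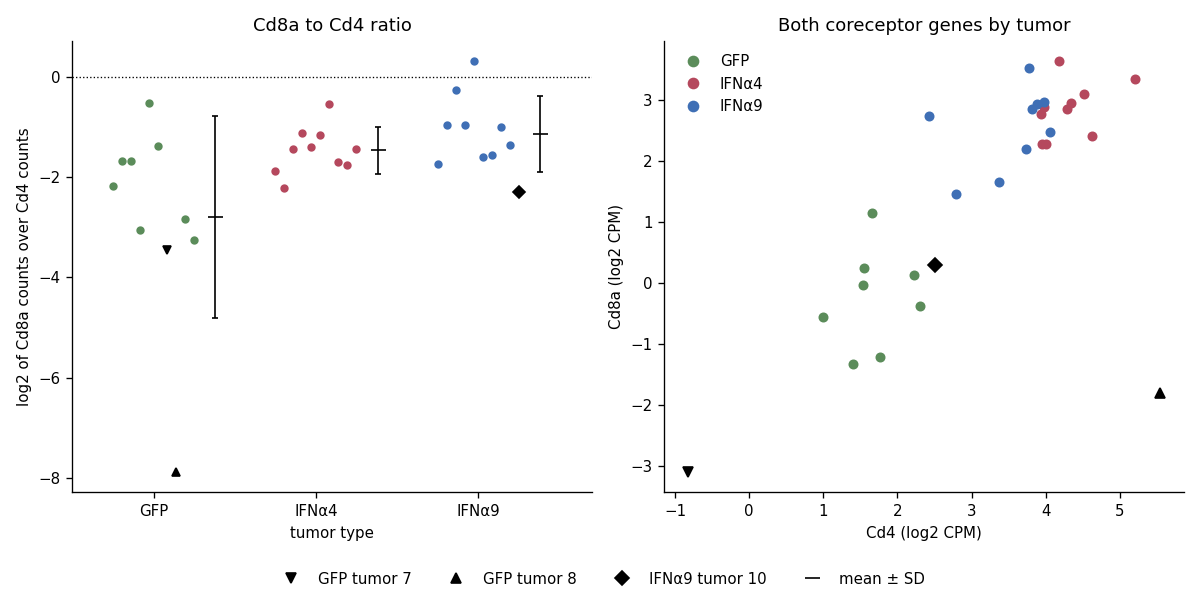
Left, log2 ratio of Cd8a to Cd4 counts in each tumor with the mean and SD of each type, where the dotted line marks equal counts. Right, log2 CPM of Cd8a against that of Cd4 in the same tumors. GFP tumor 8 combines the highest Cd4 of all with a Cd8a level in the control range, and 1 IFNα9 tumor lies above the dotted line.

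Lck (ENSMUSG00000000409.14, chromosome 4 from 129548344 to 129573641, minus strand) encodes the kinase that starts T cell receptor signalling. It ran from 1.64 to 5.56 CPM in GFP tumors (median 3.48), from 17.5 to 36.7 CPM in IFNα4 tumors (median 22.5) and from 9.79 to 32.1 CPM in IFNα9 tumors (median 17.1). Neither type overlapped with the controls. Lck rose by 2.77 with IFNα4 and by 2.27 with IFNα9 on the log2 scale (standard error 0.21 each; adjusted p = 1.97e-12 and 2.28e-10, edgeR with Benjamini-Hochberg adjustment). Among the 10 genes it had the smallest standard error of the fold change in each comparison.

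Zap70 (ENSMUSG00000026117.10, chromosome 1 from 36761798 to 36782818, plus strand), the kinase that binds the phosphorylated zeta chain, ran from 0.268 to 1.19 CPM in GFP tumors, with 3 to 21 counts per tumor. It ran from 2.67 to 6.59 CPM in IFNα4 tumors and from 0.734 to 5.85 CPM in IFNα9 tumors, with medians of 4.37 and 2.86. IFNα9 tumor 9, with 12 counts, was the one IFNα9 tumor within the control range. The log2 fold changes were 2.94 (standard error 0.29) and 2.29 (standard error 0.29).

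Cd28 (ENSMUSG00000026012.2, chromosome 1 from 60716800 to 60773359, plus strand), the receptor for CD80 and CD86 on antigen-presenting cells, had the largest rise with IFNα4. Its lowest, median and highest levels were 0.268, 1.07 and 1.63 CPM in GFP tumors, 6.86, 11.8 and 22.4 CPM in IFNα4 tumors and 3.02, 7.29 and 12.5 CPM in IFNα9 tumors. The controls lay below all other tumors. Cd28 rose by 3.54 with IFNα4 and by 2.78 with IFNα9, with standard errors of 0.30 and 0.29 (adjusted p = 2.20e-11 and 5.17e-09, edgeR with Benjamini-Hochberg adjustment). These are 11.6-fold and 6.89-fold higher levels.

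Levels of different genes are compared here per length of exon, taken over all annotated exons of a gene. The transcripts present can be shorter than this, so the order depends on the length used. In IFNα4 tumors, Lck was the highest at 8.50 ± 2.27 CPM per kilobase (SD, n = 10), followed by Cd3g at 6.03 ± 1.43 and Cd4 at 5.06 ± 1.64. Zap70 was the lowest at 1.52 ± 0.50, below Cd8a at 2.04 ± 0.66 and Cd28 at 2.06 ± 0.75. Apart from Lck over Cd3g and Cd3d over Cd8b1, neighbours in this order lay within an SD of each other. In GFP tumors, Lck was at 1.25 ± 0.40, Cd3g at 1.14 ± 0.54, and the lowest were Cd28, Cd8a and Zap70 at 0.17 to 0.19, within an SD of each other. The mean of Cd4 there was above all of these at 1.80 ± 3.43, but without tumor 8 it was 0.72 ± 0.33 (n = 9), below Lck at 1.26 ± 0.42 and Cd3g at 1.08 ± 0.55. In IFNα9 tumors, Lck (6.03 ± 2.17 CPM per kilobase) and Cd3g (4.56 ± 1.40) were the highest, and Zap70 (0.97 ± 0.45) the lowest. The 3 CD3 chains, whose proteins enter the complex in fixed proportions, differed by this measure, with 4.46 ± 1.21 CPM per kilobase for Cd3d and 2.84 ± 0.67 for Cd3e in IFNα4 tumors. Not divided by length, the order was reversed, with means of 8.09 CPM for Cd3d and 11.6 CPM for Cd3e in these tumors.

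IFNα9 tumors had a lower level than IFNα4 tumors of all 10 genes in sign, with log2 fold changes from −0.82 for Cd4 to −0.13 for Cd3e and a median of −0.45. Only Cd28 passed the test, at −0.76 (standard error 0.26, adjusted p = 0.0411, edgeR with Benjamini-Hochberg adjustment), which is 1 of 10 genes against 7.25% of all genes tested called lower. Without adjustment, 4 of the 10 had p under 0.05: Cd28, Cd3d, Lck and Zap70. The call of Cd28 was lost when IFNα4 tumor 1, 2, 3, 5 or 7 or IFNα9 tumor 1, 5, 6, 7, 9 or 10 was left out in turn, with values from −0.76 to −0.63 and adjusted p of 0.0513 to 0.0958 in edgeR. IFNα4 tumor 1, which moved it most, was the highest of its type for 7 of the 10 genes. The number of calls was 4 with DESeq2 (Cd28, Cd4, Lck and Zap70), 3 with only the 20 tumors compared (Cd28, Cd4 and Lck) and 0 in edgeR without a filter on low counts, where 4 genes had an unadjusted p under 0.05. It was 3 without IFNα9 tumor 8 (Cd28, Lck and Zap70) and 2 without GFP tumor 7 (Cd28 and Lck). Without GFP tumors 7 and 8 together it was 3 (Cd28, Cd4 and Zap70). Cd4, at −0.82 in all 30 tumors (standard error 0.47, adjusted p = 0.244 in edgeR), passed without GFP tumor 8 (adjusted p = 0.0197 in edgeR, −0.82). None of the 10 genes separated these types without overlap, a pattern found in the lower direction in 0.741% of the genes tested.

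How far the 10 genes varied together within a type is given as a description, and the types were not tested against each other. The median Pearson r of log2 CPM over the 45 pairs of genes was 0.44 in GFP tumors, 0.62 in IFNα4 tumors and 0.77 in IFNα9 tumors, where the genes of a pair share their libraries. Without IFNα9 tumor 10 the last value was 0.74. In IFNα9 tumors the highest r was 0.95, between Cd3g and Cd3e, and the lowest 0.38, between Cd8b1 and Cd4, which was 0.043 without tumor 10. Tumors 10 and 9 were among the lowest 3 IFNα9 tumors for 10 and 9 of the genes, and tumor 8 was among the highest 3 for 9. Among IFNα4 tumors, tumor 8 was in the lowest 3 for all 10 genes and tumor 1 in the highest 3 for 9. In GFP tumors, where counts were low, the median r was 0.27 without tumors 7 and 8. Lck had a median r of −0.02 to the other 9 genes over all 10 GFP tumors, and of 0.0099 without those tumors.

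To ask whether the genes rose in proportion, each was set against Cd3e in the same tumor, as a log2 ratio of counts. Cd28 rose more than Cd3e. Its median ratio to Cd3e was 0.415 in GFP tumors, 1.04 in IFNα4 tumors and 0.678 in IFNα9 tumors. The mean log2 ratio was higher than in GFP tumors by 1.36 with IFNα4, without overlap between tumors (two-sided permutation test with 100000 resamples, p = 2.00e-05, adjusted p = 7.80e-04), and by 0.67 with IFNα9 (permutation test, adjusted p = 0.0217). It was lower by 0.70 in IFNα9 tumors than in IFNα4 tumors (permutation test, adjusted p = 0.0188).

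Cd8a also rose more than Cd3e, with a difference of 1.65 in the log2 ratio with IFNα4 (permutation test, adjusted p = 0.00156) and 1.26 with IFNα9 (permutation test, adjusted p = 0.0217). IFNα4 tumors also exceeded GFP tumors in the log2 ratio of Cd8b1 by 1.22, of Cd3d by 0.87, of Cd247 by 0.71 and of Zap70 by 0.77 (permutation tests, adjusted p = 0.0179, 0.0179, 0.0234 and 0.0344). With IFNα9 the differences were 0.94, 0.37, 0.48 and 0.20 and did not pass (permutation tests, adjusted p = 0.0605, 0.271, 0.101 and 0.572). The first of these passed without GFP tumor 2, 6 or 7 or IFNα9 tumor 1 or 10, at 1.02 to 1.12, and with 0.1 counts added in place of 0.5, at 1.02 (adjusted p = 0.0476). It also passed without GFP tumors 7 and 8 together, at 0.91 (permutation test, adjusted p = 0.0361). That of Cd247 passed without GFP tumor 3, at 0.57. The ratio of Cd4 to Cd3e exceeded that of GFP tumors by 0.33 with IFNα4 (permutation test, adjusted p = 0.572), by 0.72 without GFP tumor 8 (adjusted p = 0.0222). That of Lck was higher by 0.58 (permutation test, adjusted p = 0.153), and by 0.77 without GFP tumor 7 (adjusted p = 0.0301). The ratio of Cd3e to Ptprc, which encodes the leukocyte antigen CD45, was lower in IFNα4 tumors than in GFP tumors by 0.53 on the log2 scale (permutation test, adjusted p = 0.0179), with 1 of 10 IFNα4 tumors above the control median. In IFNα9 tumors it differed from that of GFP tumors by −0.16 (permutation test, adjusted p = 0.499), and by −0.27 to −0.05 with single tumors left out, the ends of this range being those without IFNα9 tumor 5 and IFNα9 tumor 10. Without IFNα9 tumor 10, IFNα9 tumors exceeded IFNα4 tumors in this ratio by 0.48 (permutation test, adjusted p = 0.0322), against 0.38 with it (adjusted p = 0.124).

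Between the IFN-I–secreting tumors, 5 of the 9 ratios to Cd3e passed, and all 5 were lower with IFNα9. The 9 ratios share the counts of Cd3e, the gene with the smallest difference between these types, so their signs are not independent. The ratio of Cd4 to Cd3e fell from a median of 1.66 in IFNα4 tumors to 1.12 in IFNα9 tumors, a difference of −0.72 on the log2 scale (permutation test, p = 7.10e-04, adjusted p = 0.00923), and no IFNα9 tumor lay above the IFNα4 tumor median. The differences were −0.70 for Cd28, −0.57 for Zap70, −0.50 for Cd3d and −0.37 for Lck (permutation tests, adjusted p = 0.0188, 0.0344, 0.0217 and 0.0234). For Cd8a and Cd8b1 they were −0.39 and −0.28 and did not pass (permutation tests, adjusted p = 0.124 and 0.326). That of Cd3g, −0.29 (permutation test, adjusted p = 0.0721), passed without IFNα4 tumor 6 or 9, at −0.35 and −0.33 (adjusted p = 0.0189 and 0.0489). The difference of Zap70 was lost without IFNα4 tumor 4, 6, 7, 9 or 10 or IFNα9 tumor 3, 4, 6 or 9, at −0.55 to −0.42 (permutation tests, adjusted p = 0.0643 at most). Its difference between IFNα4 tumors and GFP tumors was lost without GFP tumor 3, 4, 5, 9 or 10 or IFNα4 tumor 4, 6, 7, 9 or 10, at 0.62 to 0.75 (adjusted p = 0.0690 at most), and with 2 counts added in place of 0.5, at 0.60 (adjusted p = 0.0853).

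**Figure D4:**
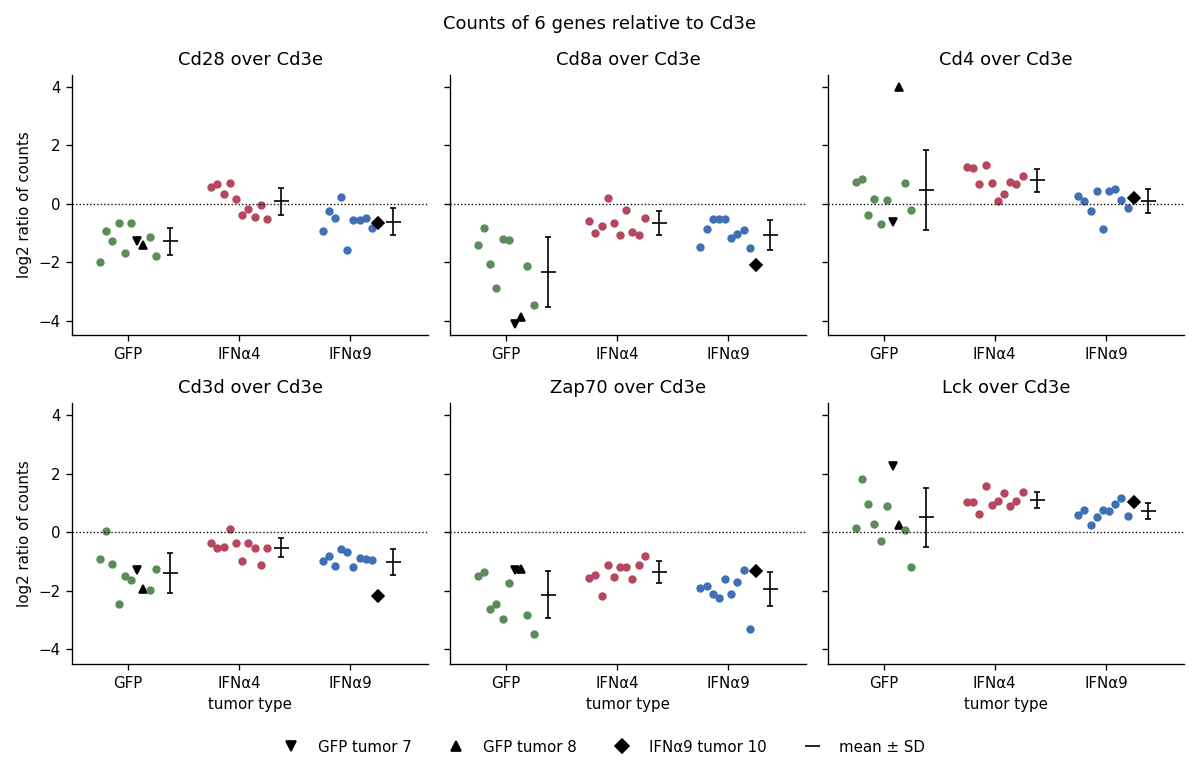
Log2 ratio of the counts of 6 genes to those of Cd3e in each tumor, with the mean and SD of each type, where the dotted line marks equal counts. For Cd28 all IFNα4 tumors lie above all GFP tumors, and for Cd4 GFP tumor 8 lies far above every other tumor.

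The signalling genes that act with the receptor were counted from a list of 38 genes, of which 32 could be tested. With IFNα4, 23 rose, 4 fell and 5 did not pass, where 31.3% of all genes tested rose and 34.1% fell, with a median log2 fold change of 1.75, where the median over all genes tested was 0.01. With IFNα9, 25 rose, 2 fell and 5 did not pass (median 1.35), where 26.9% of all genes tested rose and 28.9% fell. Among the largest rises were those of the TEC family kinase gene Txk (4.61 with IFNα4, 3.84 with IFNα9) and of Sh2d2a, an adaptor that binds Lck (3.63 and 3.08). Skap1, an adaptor of integrin activation, rose by 3.33 with IFNα4. Ubash3a, a phosphatase-like inhibitor of receptor signalling, rose by 3.00 with IFNα9.

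The genes of the list that fell were Nfatc2, a calcium-dependent transcription factor (−0.66 and −0.40), Csk, the kinase that inhibits Lck (−0.38 with IFNα4), Prkcq (−0.29) and Plcg1 (−0.16), and with IFNα9 Bcl10 (−0.19). Their mean levels in GFP tumors ran from 46.2 CPM for Bcl10 to 112 CPM for Nfatc2, where Lck had 3.65 and Cd3e 2.67 CPM. The part of cells other than T cells in these falls was not tested. With libraries scaled by their totals 1 gene of the list fell in each comparison. Between the IFN-I–secreting tumors, 7 were lower and 4 higher with IFNα9, where 7.25% of all genes tested were lower and 10.5% higher. The lower ones included Vav1, an exchange factor (−0.86), Txk (−0.77) and Ptpn22, a phosphatase that restrains the receptor (−0.67), and the higher ones were Ubash3b, Prkcq, Nfatc2 and Plcg1, at 0.24 to 0.38. Lat and Lcp2, adaptors that join Zap70 to the enzymes that follow it and were picked after their values were seen, rose by 2.36 and 1.92 with IFNα4.

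Among 7 tested genes of the CD28 family and its ligands, all 7 rose in both comparisons, where 31.3% of all genes tested rose with IFNα4 and 26.9% with IFNα9, with medians of 1.60 and 2.50. Cd274, which encodes the inhibitory ligand PD-L1, rose by 2.72 and 3.18, Icos by 2.60 and 2.50, and Ctla4, whose product competes with CD28 for its ligands, by 2.49 and 2.64. Pdcd1, which encodes PD-1, rose by 1.60 with IFNα4. Between the IFN-I–secreting tumors 1 of the 7 passed, higher with IFNα9, where 10.5% of all genes tested were higher. This was Pdcd1lg2, which encodes PD-L2, at 1.03 (adjusted p = 0.00836 in edgeR with Benjamini-Hochberg adjustment), while Cd28 was lower with IFNα9. Of 9 tested T cell lineage genes, 8 rose with IFNα4 and 7 with IFNα9, to be read against the same shares. The receptor's constant region genes Trac (2.87 and 2.66) and Trbc1 (2.52 and 1.89) rose, as did Cd27 by 3.76 and 2.92 and Cd96 by 2.30 and 2.07. With IFNα9, 2 of the 9, Cd27 (−0.84) and Trbc1 (−0.63), were lower than with IFNα4, where 7.25% of all genes tested were lower. The other 7 did not pass.

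Genes of other cells that carry some of the 10 genes were counted from further lists, to be read against the 31.3% of all genes tested that rose and 34.1% that fell with IFNα4, and 26.9% and 28.9% with IFNα9. Between the IFN-I–secreting tumors the shares of all genes tested were 7.25% lower and 10.5% higher with IFNα9. All 11 genes of an NK cell list rose in both comparisons, with medians of 4.35 and 3.54, larger than that of the 10 receptor genes, and 6 of the 11 were lower with IFNα9 than with IFNα4. Their summed level was 5.09 to 26.1 CPM in GFP tumors, 110 to 417 CPM in IFNα4 tumors and 72.8 to 253 CPM in IFNα9 tumors. The most abundant were Nkg7, which cytotoxic T cells also express, and the receptor genes Klra7 and Ncr1. The part of NK cells in the levels of Cd247, Lck and Zap70 was not tested.

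The γδ T cell list had 6 of 7 genes higher in each comparison (medians 2.07 and 1.65), with Trdc at 5.36 ± 2.51 CPM (SD, n = 10) in GFP tumors, 22.6 ± 5.08 in IFNα4 tumors and 15.9 ± 4.82 in IFNα9 tumors. The CD3 chains serve γδ cells as well. All 6 tested genes of the regulatory T cell list rose in both (medians 0.96 and 0.92), the most abundant being Ikzf2, Tnfrsf18 and Il2ra. Of 9 genes of XCR1 dendritic cells, 7 rose and 1 fell with IFNα4, 8 rose with IFNα9, and 3 were higher with IFNα9 than with IFNα4, with Cadm1, Naaa and Tlr3 the most abundant. Of 7 genes of plasmacytoid dendritic cells, 5 rose with IFNα4, 3 rose and 1 fell with IFNα9, and 3 were lower with IFNα9 than with IFNα4. Of 7 macrophage genes, led by Mrc1, C1qa and C1qb, 1 rose and 2 fell with IFNα4 and 1 rose with IFNα9. No gene of these lists was at 0 in all tumors of a type. Of 7 tested ILC2 genes 5 rose and 1 fell in each comparison, and of 3 tested B cell genes 2 rose with IFNα4 and 1 with IFNα9. Compared with IFNα4, 2 of the 7 ILC2 genes and 1 of the 3 B cell genes were lower with IFNα9. Of the 7 macrophage genes 1 was higher with IFNα9, and no γδ or regulatory T cell gene passed in this comparison.

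The genes whose levels followed single receptor genes most closely were found by Pearson r of log2 CPM over the 30 tumors, after the mean of each type was subtracted. Nearest to Cd3e was Cd2, an adhesion receptor of T and NK cells (r = 0.88), then Diaph1 (0.88), Bin2 (0.86) and Kprp (0.86), a gene of keratinocytes, followed by 2310050C09Rik, Jaml, Lrmp, Spn, Mctp2 and Satb1 with r from 0.83 to 0.85. By rank (Spearman), the values of these 10 genes ran from 0.64 for Satb1 to 0.83 for Cd2. The likeness was not repeated without GFP tumor 7 or IFNα9 tumor 10, which had the lowest Cd3e of their types. Nearest to Cd8a were Trbc2 (0.85), Sorl1 (0.83), Tnf (0.82), Trbc1 (0.82) and Tent5c (0.79). Without GFP tumor 8, 3 of these 5 were still among the nearest, with Trac (0.87) and Ccl5 (0.85) in place of Tnf and Tent5c, and 9 of the 10 genes nearest to Cd3e were. Nearest to Cd4 were Vcam1 (0.87), Tnfrsf1b (0.82), Mknk1 (0.82), Fgr (0.82) and Cd300ld4 (0.80), and 0 of these 5 were among the nearest 5 without GFP tumor 8, when Icos (0.91), N4bp1, Cap1, Prkcb and Rassf2 took their place. The 30 tumors share libraries across genes, so these values describe likeness only.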

How the data were processed

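Total RNA of whole tumors was sequenced by the authors from stranded mRNA libraries, read from one end over 50 bases. The submitters' processing notes name FastQC 0.11.3, HISAT2 2.0.4 and mm10, while the study's methods name mm11, and the annotation, strand setting and overlap mode were not given in the sources used here. The authors deposited raw counts per gene and tumor, with no normalization.

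Symbols and coordinates were matched by identifier to GENCODE M21 (GRCm38), which held 39495 of 39676 identifiers, 36719 in the same version. The 15926 genes whose counts averaged 10 or more were compared with edgeR 4.0.16 in R 4.3.3, by TMM scaling and one quasi-likelihood fit of all 30 tumors, with Benjamini-Hochberg adjustment over all genes tested and a threshold of 0.05. Log2 CPM took 2 added counts. Ratios of counts took 0.5 added counts and two-sided permutation tests with 100000 resamples, adjusted over 39 tests (13 ratios, 3 comparisons). On simulated counts of 15861 genes, 192 of 199 genes changed by 1 on the log2 scale were recovered for IFNα4 against GFP, with 12 others called. No pair of libraries of the same tumor type agreed within sampling noise. The tumor numbers were checked for pairing: only 4 of 30 same-numbered pairs had a correlation of deviations over 0.1. The genes and lists were chosen with earlier results of these data known. Beside the 10 genes, text names the 4 largest called rises and falls of the signalling, CD28 family and lineage lists, the 3 most abundant genes of every other list, and the genes nearest to Cd3e (10), Cd8a (5) and Cd4 (5). Some genes that this rule names are not reported here. Others are marked. Alternatives were DESeq2 1.42.0 and its size factors, library totals, filterByExpr, no filter, only the 20 tumors compared, a replicate block, a threshold of 0.01, other pseudocounts and each tumor left out. Leaving out GFP tumors 7 and 8 together, the likeness without tumor 8 and the correlations without these or IFNα9 tumor 10 were chosen after seeing the data. Figures used Python 3.11.15 and matplotlib 3.10.9.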

Additional observations from a re-analysis of the deposited data

Results flagged for a closer look

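In groups of 10 tumors, a value was singled out when its gap to the nearest tumor passed Dixon's 95% limit for the share of the whole range. The search covered 69 groups, log2 CPM of the 10 genes and 13 log2 ratios in each type. Chance gives about 1 in 20, or 3.45, and 11 were found.

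In GFP tumor 8, Cd4 was far above the other controls at 5.54 log2 CPM, with the next at 2.31. Its log2 ratios of Cd8a to Cd4 (−7.88, next −3.46) and Cd8b1 to Cd4 (−8.36, next −3.91) were the lowest and that of Cd4 to Cd3e (4.00, next 0.83) the highest. GFP tumor 7 was the lowest for Cd247 at −1.76 log2 CPM (next 0.02) and for the log2 ratio of Cd8a to Cd8b1 at −3.17 (next 0.14), which rests on 0 counts of Cd8a. IFNα9 tumor 10 was the lowest for Cd3d at 0.22 log2 CPM (next 2.01), for Cd3g at 2.50 log2 CPM (next 3.54) and for the log2 ratio of Cd3d to Cd3e at −2.17 (next −1.18). The log2 ratio of Zap70 to Cd3e was lowest in IFNα9 tumor 9 at −3.32 (next −2.23). The log2 ratio of Cd3g to Cd3e was highest in IFNα4 tumor 4 at 1.72 (next 0.97).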

How the results depend on the processing

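All 10 genes were called higher with IFNα4 than in the controls under every alternative run, and 9 or 10 with IFNα9, where Cd4 was added with DESeq2, the replicate block or without GFP tumor 8. Between the IFN-I–secreting tumors the number called was 4 with DESeq2, 3 with the 20 tumors compared, 3 without GFP tumors 7 and 8, 2 with the replicate block, 0 at a threshold of 0.01 and 0 in edgeR without a filter (4 genes at an unadjusted p under 0.05 in both), and 0 to 3 when single tumors were left out. The tumor numbers did not pair the tumors, since each correlated best with its own number in 4 of 60 cases.

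For the log2 ratio of Cd8a to Cd4, IFNα4 against GFP, the difference of 1.33 passed with 0.1 counts added (1.60) and for medians (1.06), and ranged from 0.76 to 1.58 with single tumors left out. IFNα9 against GFP, 1.65, did not pass with 2 counts added (1.34), with Cd8b1 in place of Cd8a (1.33) or without GFP tumors 7 and 8 (0.93), and ranged from 1.08 to 1.90. With the replicate block its adjusted p was 0.0190, by an exact test of sign flips. For IFNα9 against GFP, 3 differences that did not pass changed sign: Cd8a to Cd8b1, 0.32, without GFP tumor 7 (−0.0561) or tumors 7 and 8 (−0.0689), Cd3g to Cd3e, 0.051, without tumor 9 (−0.000660) or 10 (−0.0138), and Cd4 to Cd3e, −0.39, without tumor 8 (0.00176). Over single tumors left out, these ranged from −0.0561 to 0.421, −0.0138 to 0.0985 and −0.517 to 0.00176. Beyond this the cause was not tested. With library totals, the falls of 1 gene in the XCR1 dendritic cell list with IFNα4 and of 1 in the plasmacytoid list with IFNα9 were not called. Of 104 alternative counts of list genes in each comparison, 102 stayed the same or close with IFNα4 and 97 with IFNα9. Between the IFN-I–secreting tumors 96 did, 4 were smaller and 4 larger. Genes with few counts in the controls, such as Cd8a and Cd8b1, limit the precision of their ratios.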

Other observations

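GFP tumor 8 differed from the other controls in more than Cd4. Of the 15926 genes tested, 15 were at least 1 log2 CPM above every other GFP tumor there, a description chosen after the Cd4 count was seen. Besides Cxcl13 and Cd4 they included Colq (285 counts, at most 30 in the other controls), the phospholipase gene Pla2g2d (835 against at most 109), the transcription factor genes Spib (205 against at most 23) and Spic (55 against at most 19), and the immunoglobulin genes Iglc3 (90 against at most 17) and Ighg2b (19 against at most 3). The adhesion molecule gene Vcam1 (856 against at most 399), the metalloproteinase gene Mmp9 (1106 against at most 305) and the lectin gene Cd209b (1361 against at most 566) were also among them. Vcam1 was the gene whose level followed Cd4 most closely over the 30 tumors, and it was not among the nearest 5 without this tumor.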
